A study of Arabidopsis thaliana with 12 samples.

Results

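The 10 genes described here encode proteases of the chloroplast or close relatives of them: 5 FtsH genes (FTSH1, FTSH2, FTSH5, FTSH6 and FTSH8), 4 DEG genes (DEG1, DEG2, DEG5 and DEG8) and EGY3. They were chosen by name, as 10 of the 33602 loci in the count table, in a proposal made with the counts and tests of these libraries in view. No threshold on a measured value applies, and the tests below describe differences against replicate spread rather than independent evidence for the choice. RNA sequencing measured transcripts in leaves of the Arabidopsis thaliana lines cat2 gox2 and cat2 gox1, in the Columbia-0 background and 3 weeks old, with 3 libraries for each line and condition and 12 in all. Both lines carry the cat2-2 allele of the peroxisomal catalase gene CAT2, and each carries in addition a mutation in 1 of 2 glycolate oxidase genes, GOX2 or GOX1. No wild type or cat2-2 single mutant was analysed here, so every comparison is between 2 double mutants or between 2 conditions of 1 double mutant.

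The 4 groups were cat2 gox2 after high light, cat2 gox2 at high CO2, cat2 gox1 after high light and cat2 gox1 at high CO2. For high light, plants grown at 3000 ppm CO2 and 120 µmol m-2 s-1 were moved to ambient air (400 ppm CO2) and 1200 µmol m-2 s-1 for 3 h, and relative humidity changed as well, to 55% against 75%. The effects of light, CO2, humidity, chamber and elapsed time cannot be told apart. Each library came from the pooled middle-aged leaves of 15 plants, and the whole set-up was run 3 times. The p-values below measure the spread between these 3 pooled samples per group. The title of the study names the question: whether GOX1 and GOX2 play different roles when photorespiration is promoted.

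FtsH proteases are ATP-driven zinc metalloproteases of the thylakoid membrane, and they are best known for removing photodamaged D1 protein from photosystem II so that a new copy can be inserted. In Arabidopsis the thylakoid complex is a ring of mixed subunits, type A (FTSH1 and FTSH5) and type B (FTSH2 and FTSH8), and subunits of one type can partly replace each other. DEG proteases are serine proteases that do not need ATP. DEG1, DEG5 and DEG8 sit in the thylakoid lumen, DEG5 and DEG8 together in one complex, and DEG2 sits on the stromal side. EGY3 is a chloroplast relative of the intramembrane metalloproteases EGY1 and EGY2.

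The sequences below show what sets EGY3 apart from the other metalloprotease members. FtsH and EGY metalloproteases bind their catalytic zinc through a short site of 5 codons, histidine, glutamate, any, any, histidine. A search of the coding sequences (RefSeq, TAIR10.1 assembly) found that site 1 time in each of the 5 FtsH members and in EGY1 and EGY2, and 0 times in EGY3. In the stretch of EGY3 that aligned with the site of EGY1 and of EGY2, the second codon was for glutamate and the first and last were not for histidine. Over the whole protein, 29.98% of 507 aligned residues were identical between EGY3 and EGY1, and 27.34% of 512 between EGY3 and EGY2. Capitals mark the 5 codons, each with 12 bases of coding sequence on either side, 5′ to 3′ on the coding strand.
FTSH1: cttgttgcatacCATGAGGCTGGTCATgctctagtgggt
FTSH5: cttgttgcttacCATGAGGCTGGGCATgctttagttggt
FTSH2: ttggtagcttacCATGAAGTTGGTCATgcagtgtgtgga
FTSH8: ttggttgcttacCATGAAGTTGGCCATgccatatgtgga
FTSH6: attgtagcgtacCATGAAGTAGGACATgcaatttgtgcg
EGY1: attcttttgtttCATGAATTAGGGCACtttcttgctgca
EGY2: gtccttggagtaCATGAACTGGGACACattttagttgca
EGY3: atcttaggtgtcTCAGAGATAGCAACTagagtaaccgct

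Over the whole coding sequence, 87.2% of 2046 aligned bases were identical between FTSH2 and FTSH8 and 82.4% of 2089 between FTSH1 and FTSH5. DEG5 and DEG8 shared 62.5% of 918 aligned bases. In the 7 member pairs compared, no run of 50 bases was common to the longest annotated transcripts of both genes. How reads with several alignments were counted is not given in the sources used here.

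On TAIR10.1, the type A genes lie at chr1:18614201-18617155 (FTSH1, AT1G50250, minus strand) and chr5:16902475-16905294 (FTSH5, AT5G42270, plus strand). The type B genes lie at chr2:13174279-13177223 (FTSH2, AT2G30950, plus strand) and chr1:1960031-1963189 (FTSH8, AT1G06430, minus strand), and FTSH6 (AT5G15250) at chr5:4950359-4952803 (minus strand). The lumenal DEG genes are at chr3:10365652-10369013 (DEG1, AT3G27925, minus strand), chr4:10148951-10151218 (DEG5, AT4G18370, plus strand) and chr5:15942764-15945897 (DEG8, AT5G39830, plus strand), and DEG2 (AT2G47940) is at chr2:19617986-19622301 (minus strand). EGY3 (AT1G17870) spans 6 exons at chr1:6149939-6152222 (minus strand), and its aligned stretch falls within chr1:6150938-6151035, across an exon junction. The 3′ end of EGY3 shares 100 bases with AT1G17860, a Kunitz family protease inhibitor gene on the opposite strand. TAIR10.1 also places the non-coding RNA locus AT1G05347 over 251 bases of EGY3 on the same strand and the antisense RNA locus AT1G05353 over 197 bases on the opposite strand, and reads from AT1G05347 and EGY3 in the shared bases cannot be told apart. FTSH1, FTSH2, FTSH5, FTSH6, DEG2 and DEG5 each overlap 1 or 2 loci on the opposite strand, by 45 to 511 bases. The libraries were made with a stranded kit, and whether the counting used strand is not given in the sources used here.

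Library totals ran from 19571516 to 25314811 counts. Values are given as CPM, read counts scaled to a common library size with TMM factors, with replicates in the order 1, 2 and 3. The mutations showed in the transcripts: GOX2 had 7.48, 122 and 6.98 CPM in cat2 gox2 after high light against 451 to 653 CPM in cat2 gox1 after high light, and GOX1 had 943 to 1043 CPM in cat2 gox2 after high light against 128 to 190 CPM in cat2 gox1 after high light. The library labelled cat2 gox2 high light replicate 2 therefore stands apart in GOX2, and the calls on members that rest on it are given without it as well. The 3 leaf markers (RBCS1A, LHCB1.1 and RCA) summed to 16725 to 23510 CPM in cat2 gox2 after high light, 34291 to 56297 CPM in cat2 gox2 at high CO2, 12514 to 21959 CPM in cat2 gox1 after high light and 31499 to 49315 CPM in cat2 gox1 at high CO2. The 3 root, 3 seed and 3 flower markers summed to at most 1.38, 0.210 and 1.45 CPM in any library, and 1 or 2 of the 3 root markers and 2 of the 3 seed markers had no count in a whole group, as did 1 of the 3 flower markers in 3 groups. The 279 loci of the plastid and mitochondrial genomes have 0 counts in every library, so the chloroplast-encoded targets of these proteases were not analysed here.

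After high light, most of these genes stood at lower transcript levels in both lines, and 1 of them stood far higher in cat2 gox2. Of the 9 members that passed the filter on low counts, 6 fell in cat2 gox2 after high light (FTSH1, FTSH5, DEG1, DEG2, DEG5 and DEG8), EGY3 rose, and FTSH2 and FTSH8 did not pass the test. Of all 18967 genes tested in cat2 gox2, 56.9% passed: 29.2% fell and 27.7% rose. In cat2 gox1 after high light the same 6 genes fell and 0 rose, where 52.1% of all genes passed, 26.5% lower and 25.6% higher, and EGY3, FTSH2 and FTSH8 did not pass. The median log2 difference of the 9 members was -0.53 in cat2 gox2, where that of all genes was -0.09, and -0.38 in cat2 gox1, where that of all genes was -0.06. Without the library that stands apart in GOX2, the same 7 members passed in cat2 gox2, where 53% of all genes did. The log2 differences of the 6 that fell were then -0.46 for FTSH1 (adjusted p = 0.0268), -0.56 for FTSH5, -0.78 for DEG1, -1.36 for DEG2, -1.12 for DEG5 and -0.75 for DEG8 (adjusted p from 0.00128 to 0.0172 for these 5). Calls are edgeR quasi-likelihood tests at a Benjamini-Hochberg adjusted p under 0.05 over all genes, and log2 values are high light over high CO2. In pooled leaves, fewer cells of a type and less RNA per cell cannot be told apart. The 3 leaf markers fell in both lines too (log2 differences from -1.52 to -1.19 in cat2 gox2 and from -1.77 to -0.95 in cat2 gox1), and their part in the fall of the 6 members was not tested.

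**Figure D1:**
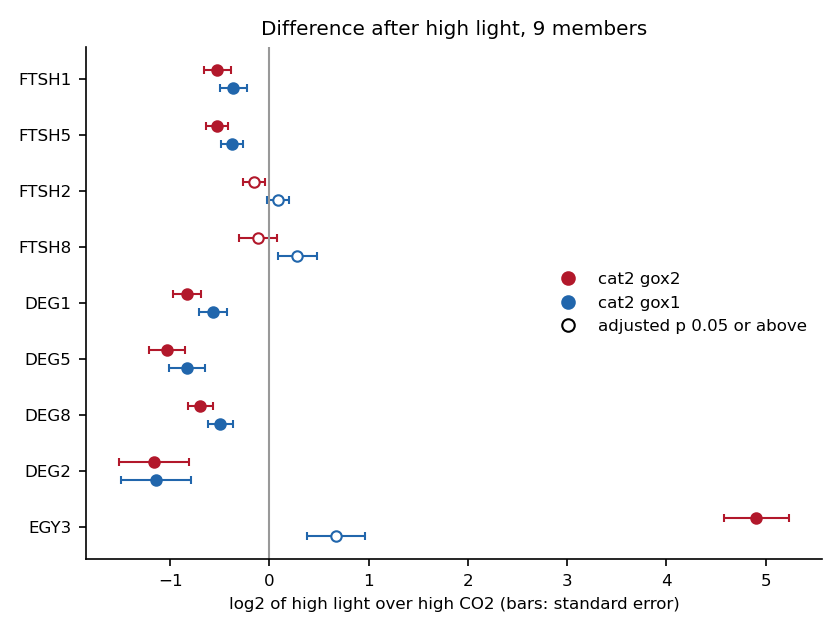
Log2 of high light over high CO2 (x axis) for the 9 tested members (y axis), cat2 gox2 in red above cat2 gox1 in blue, with bars of 1 standard error. Filled points have an adjusted p under 0.05: FTSH1, FTSH5 and the 4 DEG genes lie left of 0 in both lines, and EGY3 lies at 4.91 in cat2 gox2 and at 0.67, unfilled, in cat2 gox1.

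Levels between genes were compared as CPM per kilobase of exon. FTSH2 was the most abundant member in all 4 groups, at 465 ± 25.2 in cat2 gox2 after high light, 518 ± 13.5 in cat2 gox2 at high CO2, 525 ± 35.7 in cat2 gox1 after high light and 493 ± 3.87 CPM per kb in cat2 gox1 at high CO2 (SD, n = 3 each). FTSH5 was second in all 4 groups, between 246 and 355 CPM per kb on average, and its range did not overlap that of FTSH2 or of the third gene. FTSH1, FTSH8 and DEG1 followed, and at high CO2 the ranges of FTSH8 and DEG1 overlapped in both lines. DEG2, DEG8 and DEG5 came next, at averages of 21.3 to 40.1 CPM per kb after high light and 40.9 to 89.6 CPM per kb at high CO2. EGY3 had rank 9 in 3 groups, at 3.01 ± 0.376 in cat2 gox2 at high CO2, 5.80 ± 0.0813 in cat2 gox1 after high light and 3.63 ± 0.777 CPM per kb in cat2 gox1 at high CO2. In cat2 gox2 after high light it had rank 5, at 90.2 ± 38.5 CPM per kb, and its range of 48.6 to 125 overlapped those of FTSH8 (91.2 to 126), FTSH1 (99.8 to 118), DEG1 (65.5 to 78.4) and DEG2 (32.5 to 50.6).

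EGY3 was the member that separated the lines. EGY3 (AT1G17870) had 90.2, 231 and 181 CPM in cat2 gox2 after high light, against 5.73, 4.82 and 6.19 CPM in cat2 gox2 at high CO2. In cat2 gox1 it had 10.9, 10.7 and 10.6 CPM after high light, against 6.47, 5.45 and 8.30 CPM at high CO2. All 3 high light libraries of cat2 gox2 were above every other library by a wide margin, and within cat2 gox1 the high light libraries were also above the high CO2 libraries without overlap. The cat2 gox2 high light libraries differed among themselves, with replicate 1 the lowest. Raw EGY3 counts were 1761, 4828 and 4463 in cat2 gox2 after high light against 109, 98 and 126 in cat2 gox2 at high CO2, so depth did not limit that comparison.

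**Figure D2:**
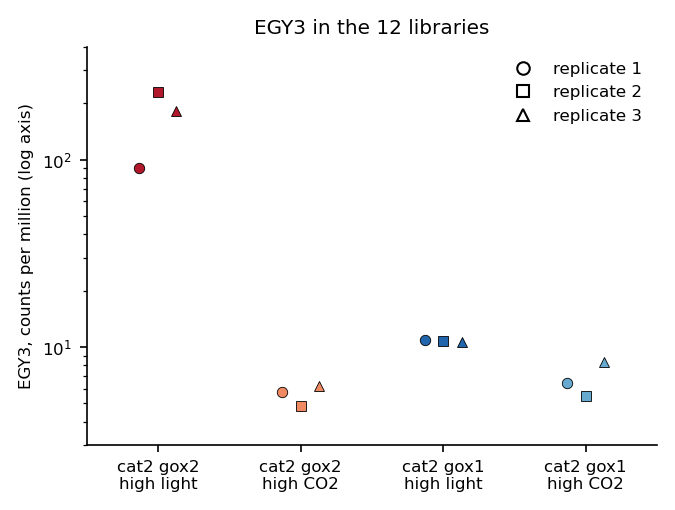
EGY3 in CPM on a log axis (y axis) in each of the 12 libraries by group (x axis), with marker shape giving the replicate. The 3 cat2 gox2 high light libraries lie at 90.2, 231 and 181 CPM, and the other 9 libraries between 4.82 and 10.9 CPM.

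EGY3 rose 30.0-fold in cat2 gox2 after high light (log2 4.91, SE 0.32, edgeR adjusted p = 4.34e-07). Without the library that stands apart in GOX2, its log2 difference there was 4.60 (SE 0.28, adjusted p = 9.67e-07). In cat2 gox1 the log2 difference was 0.67 (SE 0.29) and missed the threshold (edgeR adjusted p = 0.0708), with an approximate 95% interval from 0.11 to 1.24. That miss depended on the setting: 5 of 19 refits passed, namely DESeq2 (0.72, adjusted p = 0.0424), the 6 libraries of cat2 gox1 alone (0.67, adjusted p = 0.0205), and leaving out high CO2 replicate 3 of cat2 gox1 (0.87, adjusted p = 0.039) or high light replicate 1 (adjusted p = 0.00733) or 2 (adjusted p = 0.0424) of cat2 gox2.

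Between the lines after high light, EGY3 was 15.6-fold higher in cat2 gox2 than in cat2 gox1 (log2 3.96, SE 0.31, adjusted p = 4.25e-05, higher in 3 of 3 libraries). Without the library that stands apart in GOX2, that log2 difference was 3.66 (SE 0.27, adjusted p = 8.12e-05). Under high CO2 the lines did not differ beyond their spread, at 5.73, 4.82 and 6.19 CPM in cat2 gox2 and 6.47, 5.45 and 8.30 CPM in cat2 gox1 (log2 -0.28, approximate 95% interval -0.86 to 0.31, edgeR adjusted p = 1). The light responses of the lines differed by 4.24 on the log2 scale, cat2 gox2 minus cat2 gox1 (SE 0.42, edgeR adjusted p = 0.000958). Of all 18967 genes, 1.04% passed that test, 0.996% higher and 0.0422% lower, and EGY3 ranked 20 from the highest difference. Leaving out the 4 replicate 3 libraries ended the call, with a difference of 4.09 and an adjusted p of 0.051, and leaving out the library that stands apart in GOX2 gave 3.93 (adjusted p = 0.0018). Those settings left 0.2% and 0.59% of all genes past the threshold.

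The overlapping neighbour AT1G17860 was also higher after high light. It had 70.9, 64.7 and 64.4 CPM in cat2 gox2 after high light against 4.68, 4.62 and 5.94 CPM in cat2 gox2 at high CO2. The cat2 gox1 libraries had 24.7, 37.6 and 21.9 CPM after high light against 3.10, 4.80 and 5.32 CPM at high CO2. In both lines its high light libraries lay above its high CO2 libraries. Its part in the EGY3 counts was not tested.

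Among the FtsH genes, in the fit of all 12 libraries, the type A subunits fell in both lines and the type B subunits did not pass the test in either. Without the replicate 3 libraries, the type A calls in cat2 gox1 were lost and FTSH8 passed there as a rise. FTSH1 (AT1G50250) had 292, 257 and 305 CPM in cat2 gox2 after high light against 373, 383 and 472 CPM in cat2 gox2 at high CO2. In cat2 gox1, FTSH1 had 288, 301 and 332 CPM after high light against 387, 363 and 435 CPM at high CO2. The high light libraries were the lower ones in both lines, without overlap. Its log2 difference was -0.53 in cat2 gox2 (SE 0.13, edgeR adjusted p = 0.00606) and -0.36 in cat2 gox1 (SE 0.13, edgeR adjusted p = 0.0405), and the cat2 gox1 call was lost in 12 of 19 refits, with adjusted p-values up to 0.145.

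FTSH5, the more abundant type A gene and the one whose loss gives the variegated var1 mutant (AT5G42270), had 561, 637 and 641 CPM in cat2 gox2 after high light against 842, 909 and 903 CPM in cat2 gox2 at high CO2. The cat2 gox1 values were 582, 642 and 666 CPM after high light against 850, 836 and 770 CPM at high CO2. The groups were again apart in both lines, with the high light libraries lower. FTSH5 fell by 0.53 on the log2 scale in cat2 gox2 (SE 0.11, edgeR adjusted p = 0.00215) and fell by 0.38 in cat2 gox1 (SE 0.11, edgeR adjusted p = 0.0163, lost in 5 of 19 refits with adjusted p-values up to 0.0627).

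FTSH2, the main type B subunit and the gene of the variegated var2 mutant, had 1283, 1160 and 1268 CPM in cat2 gox2 after high light against 1347, 1417 and 1368 CPM in cat2 gox2 at high CO2. In cat2 gox1 it had 1350, 1505 and 1332 CPM after high light against 1322, 1301 and 1313 CPM at high CO2. The high light libraries were lower in cat2 gox2 and higher in cat2 gox1, each without overlap, but neither difference passed the test. The log2 differences were -0.16 in cat2 gox2 (approximate 95% interval -0.37 to 0.06, edgeR adjusted p = 0.249) and 0.09 in cat2 gox1 (interval -0.13 to 0.31, edgeR adjusted p = 0.52).

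FTSH8, the second type B subunit, had 334, 265 and 366 CPM in cat2 gox2 after high light against 317, 310 and 419 CPM in cat2 gox2 at high CO2. It had 375, 432 and 500 CPM in cat2 gox1 after high light against 323, 310 and 442 CPM in cat2 gox1 at high CO2. The conditions overlapped in both lines, and replicate 3 was the highest library of each group. Compared by replicate number, FTSH8 was higher after high light in every repeat of cat2 gox1, but only in replicate 1 of cat2 gox2. With replicate number as a block, neither difference passed. The log2 differences were -0.12 in cat2 gox2 (interval -0.49 to 0.26, edgeR adjusted p = 0.624) and 0.28 in cat2 gox1 (interval -0.10 to 0.66, edgeR adjusted p = 0.237). Without the replicate 3 libraries the cat2 gox1 difference was 0.43 and passed (adjusted p = 0.0312).

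FTSH6, a member with few known targets that has been linked to light-harvesting antenna proteins and to the plastid heat shock protein HSP21, was close to undetected. It had 3, 3 and 4 counts in cat2 gox2 after high light against 0, 0 and 0 in cat2 gox2 at high CO2. The cat2 gox1 libraries had 0, 1 and 2 counts after high light against 0, 0 and 3 at high CO2. Pooled over the group, cat2 gox2 after high light stood at 0.152 CPM (exact Poisson 95% interval 0.0728 to 0.279), and the 0 counts of cat2 gox2 at high CO2 allow up to 0.0478 CPM, taking 3 counts as the limit, or 0.0588 CPM as the upper end of the same exact interval. These bounds cover counting error only. FTSH6 did not pass the filter and has no test beside the other 9. In a fit with no filter it passed in cat2 gox2 (edgeR adjusted p = 0.0289), a call that rests on 10 counts in all against 0. In that fit FTSH6 did not pass between the lines after high light (edgeR adjusted p = 0.485). Nor did it pass for the difference of light responses (edgeR adjusted p = 0.611).

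**Figure D3:**
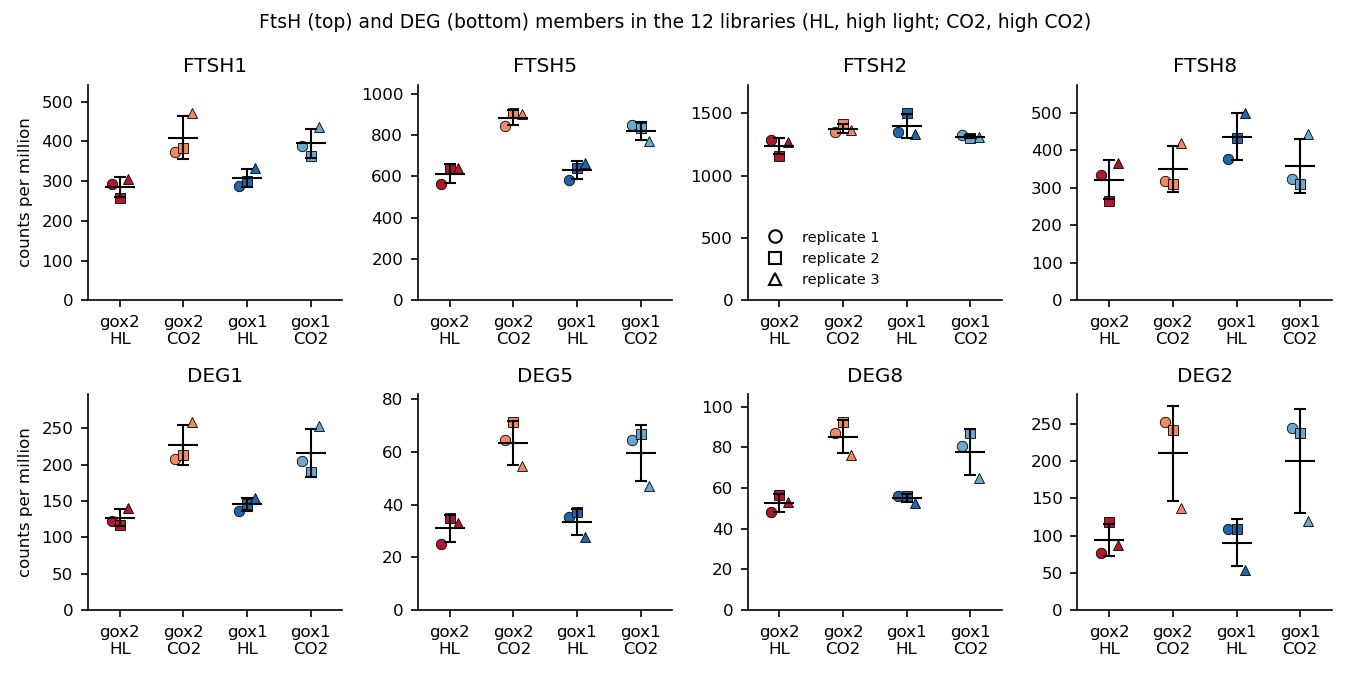
CPM (y axes, from 0) of the 4 detected FtsH genes and the 4 DEG genes in the 12 libraries, in the order cat2 gox2 high light (HL), cat2 gox2 high CO2, cat2 gox1 high light and cat2 gox1 high CO2 (x axes), with marker shape giving the replicate and bars giving the mean and SD of 3 libraries. The high light libraries lie below the high CO2 libraries of their line for FTSH1, FTSH5 and the DEG genes, while FTSH8 overlaps, and replicate 3 of DEG2 lies lowest in 3 groups.

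The lumenal DEG proteases all fell in both lines. DEG1 (AT3G27925), which cuts photodamaged D1 from the lumen side, had 123, 118 and 141 CPM in cat2 gox2 after high light against 208, 214 and 258 CPM in cat2 gox2 at high CO2. In cat2 gox1 it had 136, 146 and 154 CPM after high light against 205, 190 and 253 CPM at high CO2. The conditions did not overlap in either line, and the log2 difference was -0.83 in cat2 gox2 (SE 0.14, edgeR adjusted p = 0.000447) and -0.57 in cat2 gox1 (SE 0.14, edgeR adjusted p = 0.00561).

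DEG5, the partner of DEG8 in the lumen, had 25.2, 34.9 and 32.9 CPM in cat2 gox2 after high light against 64.3, 71.1 and 54.7 CPM in cat2 gox2 at high CO2. The cat2 gox1 libraries had 35.2, 37.3 and 27.6 CPM after high light against 64.5, 66.6 and 47.2 CPM at high CO2. Every high light library was below every high CO2 library. DEG5 fell in both lines, to a fold of 0.489 in cat2 gox2 (log2 -1.03, SE 0.18, edgeR adjusted p = 0.00056) and 0.562 in cat2 gox1 (log2 -0.83, SE 0.18, edgeR adjusted p = 0.00266). For DEG8 the values were 48.0, 56.6 and 53.4 CPM in cat2 gox2 after high light against 87.3, 92.3 and 76.3 CPM in cat2 gox2 at high CO2, and 56.3, 56.0 and 52.7 CPM in cat2 gox1 after high light against 80.7, 87.0 and 65.2 CPM in cat2 gox1 at high CO2. DEG8 fell less than DEG5 in point estimate, with log2 differences of -0.70 in cat2 gox2 (SE 0.13, edgeR adjusted p = 0.000728) and -0.50 in cat2 gox1 (SE 0.13, edgeR adjusted p = 0.00681).

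DEG2, the stromal member, had the lowest log2 differences of the 9 and the largest standard errors. It had 76.2, 119 and 87.4 CPM in cat2 gox2 after high light against 252, 242 and 137 CPM in cat2 gox2 at high CO2. The cat2 gox1 libraries had 109, 108 and 54.0 CPM after high light against 244, 238 and 119 CPM at high CO2. The conditions were apart in both lines, and replicate 3 was the lowest at high CO2 in each. The log2 difference was -1.16 in cat2 gox2 (SE 0.35, edgeR adjusted p = 0.0153) and -1.15 in cat2 gox1 (SE 0.35, edgeR adjusted p = 0.0181). Each call was lost in 3 of the 12 refits that left out 1 library, with adjusted p-values up to 0.0613 in cat2 gox2 and 0.0645 in cat2 gox1. Without the replicate 3 libraries the differences were -1.24 in cat2 gox2 (adjusted p = 0.00113) and -1.06 in cat2 gox1 (adjusted p = 0.00268).

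Replicate 3 was set apart from replicates 1 and 2 in several members. DEG2 in replicate 3 stood at 89.6% of the mean of replicates 1 and 2 in cat2 gox2 after high light, 55.4% in cat2 gox2 at high CO2, 49.7% in cat2 gox1 after high light and 49.6% in cat2 gox1 at high CO2. FTSH8 went the other way in all 4 groups, between 122% and 139%. DEG1 and FTSH1 were also higher in replicate 3 in all 4 groups, between 109% and 128% for DEG1 and between 111% and 125% for FTSH1. What differed in that repeat is not given in the labels. Without the 4 replicate 3 libraries, 7 members passed in cat2 gox2, where 58.1% of all genes did, and 5 passed in cat2 gox1, where 55.6% did. Those 5 were DEG1, DEG2, DEG5 and DEG8, which fell, and FTSH8, which rose (0.43, edgeR adjusted p = 0.0312). The cat2 gox1 calls of FTSH1 (edgeR adjusted p = 0.0957) and FTSH5 (edgeR adjusted p = 0.0507) were lost.

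Ratios inside a library do not depend on the scaling between libraries. Per kilobase of exon, type A transcripts (FTSH1 plus FTSH5) over type B transcripts (FTSH2 plus FTSH8) stood at 0.567, 0.674 and 0.623 in cat2 gox2 after high light against 0.785, 0.803 and 0.829 in cat2 gox2 at high CO2. The ratio was 0.542, 0.525 and 0.589 in cat2 gox1 after high light against 0.808, 0.800 and 0.741 in cat2 gox1 at high CO2. In both lines every high light library had the lower ratio. The log2 difference of the ratio was -0.38 in cat2 gox2 and -0.50 in cat2 gox1, each with an exact two-sided permutation p of 0.1, which is the smallest that 3 against 3 libraries allow, and an adjusted p of 0.4 over 16 ratio tests.

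DEG5 over DEG8 also stood lower after high light, at 0.609, 0.717 and 0.716 in cat2 gox2 against 0.855, 0.895 and 0.833 in cat2 gox2 at high CO2. In cat2 gox1 it was 0.726, 0.773 and 0.609 after high light against 0.929, 0.889 and 0.841 at high CO2. The conditions did not overlap in either line (exact permutation p = 0.1 for each, adjusted p = 0.4). Within each subunit type the conditions overlapped: FTSH1 over FTSH5 averaged 0.452 ± 0.0572 in cat2 gox2 after high light and 0.448 ± 0.0516 in cat2 gox2 at high CO2, and 0.472 ± 0.0157 in cat2 gox1 after high light and 0.470 ± 0.0676 in cat2 gox1 at high CO2 (SD, n = 3 each). FTSH8 over FTSH2 averaged 0.237 ± 0.0277 in cat2 gox2 after high light and 0.232 ± 0.0428 in cat2 gox2 at high CO2, and 0.288 ± 0.0492 in cat2 gox1 after high light and 0.251 ± 0.0504 in cat2 gox1 at high CO2 (SD, n = 3 each). By replicate number, FTSH8 over FTSH2 in cat2 gox1 was 0.255, 0.264 and 0.344 after high light against 0.224, 0.219 and 0.309, higher in each repeat. In cat2 gox2 that direction did not hold in every repeat, nor did FTSH1 over FTSH5 keep 1 direction in either line.

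**Figure D4:**
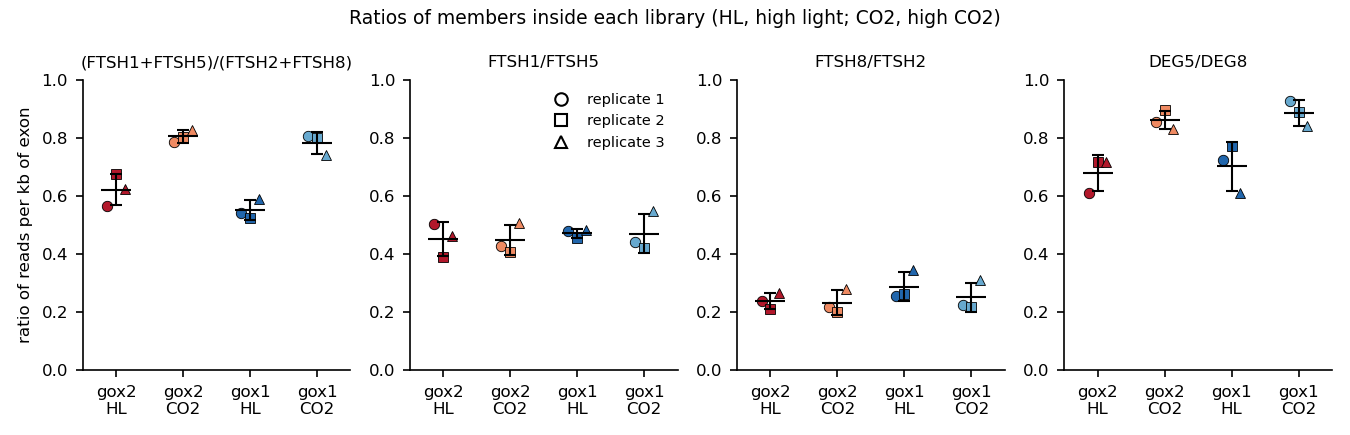
Ratios of reads per kilobase of exon (y axes, from 0 to 1) in the 12 libraries, in the order cat2 gox2 high light (HL), cat2 gox2 high CO2, cat2 gox1 high light and cat2 gox1 high CO2 (x axes), with marker shape giving the replicate and bars giving the mean and SD of 3 libraries. The high light libraries lie below those of high CO2 for type A over type B and for DEG5 over DEG8, and overlap them for FTSH1 over FTSH5 and FTSH8 over FTSH2.

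Between the lines, EGY3 was the 1 member that passed a test without a replicate block. Under high CO2, 0 of 9 members passed (0 also at an unadjusted p under 0.05 and 0 with DESeq2), where 0.0158% of all genes did, and the 9 log2 differences ran from -0.28 to 0.14. After high light 1 of 9 passed, EGY3, where 6.55% of all genes did, 5.27% higher and 1.28% lower in cat2 gox2. FTSH8 was lower in cat2 gox2 after high light than in cat2 gox1 after high light in every library, by 0.44 on the log2 scale (SE 0.19, approximate 95% interval -0.82 to -0.06, unadjusted p = 0.0432, edgeR adjusted p = 0.228). With replicate number as a block, that difference passed (-0.44, SE 0.12, adjusted p = 0.0441). Without the library that stands apart in GOX2, the FTSH8 difference was -0.32 (adjusted p = 0.528), and EGY3 was still the 1 member that passed after high light, where 4.05% of all genes did. For the 8 members other than EGY3, the light response was lower in cat2 gox2 than in cat2 gox1 in point estimate, by 0.01 (DEG2) to 0.40 (FTSH8) on the log2 scale, and none of these 8 differences passed (edgeR adjusted p from 0.717 to 1).

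The genes most like each member across the 12 libraries were found by Pearson correlation of log2 CPM over 13662 genes, as a description in which all points share libraries, conditions and depth. EGY3 was closest to HSP70T-2 (r = 0.996) and Hsp70b (r = 0.995), both heat shock proteins of the HSP70 family, and to AT5G47830 (r = 0.990). These r values rest mainly on 1 group, because EGY3 had 90.2 to 231 CPM in cat2 gox2 after high light. In the other groups it had 4.82 to 10.9 CPM. FTSH1 was close to DEG1 (r = 0.981), and DEG5 and DEG8 were close to each other (r = 0.985). DEG1 was closest to AT2G35840, a sucrose-phosphate phosphohydrolase family gene (r = 0.993), and DEG2 to EMB3126, annotated as a ribosomal protein of the L1p/L10e family (r = 0.994). DEG5 was closest to EDA3 (r = 0.996), DEG8 to AT1G32470 (r = 0.990), FTSH5 to AT5G48640, of the cyclin family (r = 0.978), FTSH8 to APO1, an RNA-binding protein (r = 0.978), and FTSH2 to MLO8 (r = 0.916). FTSH8 was the FtsH member least like the DEG genes, with r from -0.58 (DEG2) to 0.20 (DEG1).

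Because EGY3 followed HSP70 genes, the 250 bases before each member's annotated start were searched for the inverted units GAANNTTC and TTCNNGAA, which occur in heat shock elements and read the same on both strands. EGY3 had 0 matches of either, and the only match among the 10 members was 1 TTCNNGAA before FTSH6, 182 bases before its start. Over 27438 genes, 9.55% of such windows held GAANNTTC and 7.68% held TTCNNGAA. The EGY3 window reaches into the neighbouring gene AT1G17880. A window without a match says only that these letters are not in it.

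Of 12 other FtsH-type genes, all tested, 2 rose and 8 fell in cat2 gox2 (median log2 -0.95), and 2 rose and 8 fell in cat2 gox1 (median -0.79). Over all tested genes, 27.7% rose and 29.2% fell in cat2 gox2, and 25.6% rose and 26.5% fell in cat2 gox1. FTSH10, a mitochondrial FtsH, rose in both lines (0.91 in cat2 gox2, adjusted p = 0.000403; 0.84 in cat2 gox1, adjusted p = 0.000831). FTSH4, also mitochondrial, rose in cat2 gox2 (0.33, adjusted p = 0.0116), and FTSH7 rose in cat2 gox1 (0.50, adjusted p = 0.0192, lost in 3 of 19 refits with adjusted p up to 0.0794). FTSH4 was the 1 gene of these 12 that passed between the lines after high light, at 119 CPM in cat2 gox2 against 89.0 CPM in cat2 gox1 (log2 0.42, edgeR adjusted p = 0.0231). Of all tested genes, 6.55% passed that test. For the difference of light responses, 0 of the 12 passed. FTSHI1, an FtsH relative, fell by 1.38 in cat2 gox2 (adjusted p = 0.000905). AT3G02450, annotated as an FtsH protein, fell by 1.71 in cat2 gox2 (adjusted p = 0.000255) and fell by 1.66 in cat2 gox1 (adjusted p = 0.000388). No zinc site was found in FTSHI1 or AT3G02450, nor in AT3G16290, AT5G64580 and AT3G04340 of the same list. FTSH9 fell by 1.39 in cat2 gox1 (adjusted p = 6.38e-06). Its level was lower in cat2 gox2 too, on average 56.6 CPM after high light against 133 CPM at high CO2. FTSHI1 likewise averaged 26.5 CPM in cat2 gox1 after high light against 62.6 CPM in cat2 gox1 at high CO2.

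Of 7 other DEG and EGY genes, 0 rose and 3 fell in cat2 gox2 (median log2 -0.46), and 0 rose and 2 fell in cat2 gox1 (median -0.62). The shares over all tested genes were 27.7% higher and 29.2% lower in cat2 gox2, and 25.6% and 26.5% in cat2 gox1. EGY1 and EGY2, the relatives of EGY3, both fell. EGY1, a plastid metalloprotease needed for normal thylakoids, had 21.1, 34.6 and 25.9 CPM in cat2 gox2 after high light against 78.4, 71.8 and 46.3 CPM in cat2 gox2 at high CO2, and fell by 1.27 on the log2 scale (adjusted p = 0.00197). In cat2 gox1, EGY1 fell by 1.14 (adjusted p = 0.00429). DEG14 fell by 0.79 in cat2 gox2 (adjusted p = 0.0341). EGY2 fell by 0.83 in cat2 gox2 (adjusted p = 0.015) and fell by 0.80 in cat2 gox1 (adjusted p = 0.0193), and each EGY2 call was lost in 3 of 19 refits (adjusted p up to 0.0601 in cat2 gox2 and 0.0764 in cat2 gox1). These adjusted p-values are from edgeR, as are those of the lists below.

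In the Clp system, the main protease of the stroma, 1 of 15 genes rose and 12 fell in cat2 gox2 (median log2 -0.48), and 1 rose and 5 fell in cat2 gox1 (median -0.31). Over all tested genes, 27.7% rose and 29.2% fell in cat2 gox2, and 25.6% rose and 26.5% fell in cat2 gox1. The Clp gene that rose was CLPD, a chaperone also known as an early dehydration response gene. CLPD had 2511, 1545 and 2241 CPM in cat2 gox2 after high light against 205, 164 and 384 CPM in cat2 gox2 at high CO2, and 1713, 2399 and 2015 CPM in cat2 gox1 after high light against 209, 185 and 444 CPM in cat2 gox1 at high CO2. Its log2 difference was 3.06 in cat2 gox2 (SE 0.41, adjusted p = 7.96e-05) and 2.87 in cat2 gox1 (SE 0.40, adjusted p = 0.00016). CLPC1, the major Clp chaperone, fell by 0.68 in cat2 gox2 (adjusted p = 0.000355), and AT1G68660, annotated as a ClpS-type adaptor, fell by 0.96 in cat2 gox2 (adjusted p = 0.000544) and fell by 0.68 in cat2 gox1 (adjusted p = 0.00547). The 4 genes that fell in cat2 gox1 beside AT1G68660 were AT2G03390, annotated with a uvrB/uvrC motif (-0.45, adjusted p = 0.0067, lost in 1 of 19 refits at 0.0549), CLPP6 (-0.39, adjusted p = 0.0372), CLPR4 (-0.36, adjusted p = 0.0188) and CLPC1 (-0.34, adjusted p = 0.023).

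Of 12 further plastid peptidases, 2 rose and 4 fell in cat2 gox2 (median log2 -0.21), and 2 rose and 5 fell in cat2 gox1 (median -0.27). The shares over all tested genes were 27.7% higher and 29.2% lower in cat2 gox2, and 25.6% and 26.5% in cat2 gox1. Both risers among the peptidases were signal peptidases. PLSP2A had 78.4, 93.5 and 89.0 CPM in cat2 gox2 after high light against 14.3, 12.1 and 11.7 CPM in cat2 gox2 at high CO2, and 32.3, 38.6 and 32.1 CPM in cat2 gox1 after high light against 12.9, 13.3 and 10.8 CPM in cat2 gox1 at high CO2. It rose by 2.78 on the log2 scale in cat2 gox2 (SE 0.13, adjusted p = 5.13e-08) and by 1.48 in cat2 gox1 (SE 0.13, adjusted p = 5.65e-06). PLSP2B rose by 1.41 in cat2 gox2 (adjusted p = 0.000369) and by 1.02 in cat2 gox1 (adjusted p = 0.00347). AT5G46390, annotated as a peptidase of family S41, fell by 1.03 in cat2 gox2 (adjusted p = 1.03e-05) and fell by 1.26 in cat2 gox1 (adjusted p = 3.91e-06), and PREP2, which degrades cleaved targeting peptides, fell by 0.81 in cat2 gox2 (adjusted p = 0.0288) and fell by 0.88 in cat2 gox1 (adjusted p = 0.0225). The PREP2 call was lost in 4 of 19 refits in cat2 gox2 (adjusted p up to 0.12) and 5 of 19 in cat2 gox1 (up to 0.0805). PLSP1, the third signal peptidase, fell in both lines (-0.63 in cat2 gox2, adjusted p = 0.00649; -0.66 in cat2 gox1, adjusted p = 0.00584), as did AT4G17740, of peptidase family S41 (-0.55 in cat2 gox2, adjusted p = 0.046; -0.63 in cat2 gox1, adjusted p = 0.029). SPP, the stromal processing peptidase, fell by 0.35 in cat2 gox1 (adjusted p = 0.0296).

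Most genes for photosystem II repair and assembly, the process in which the thylakoid FtsH and DEG proteases act, fell in both lines. Of 26 genes, 0 rose and 24 fell in cat2 gox2 (median log2 -0.89), and 0 rose and 24 fell in cat2 gox1 (median -0.90). Over all tested genes, 27.7% rose and 29.2% fell in cat2 gox2, and 25.6% rose and 26.5% fell in cat2 gox1. CPSRP43, a subunit of the chloroplast signal recognition particle, fell by 1.68 in cat2 gox2 (adjusted p = 0.000141) and fell by 1.80 in cat2 gox1 (adjusted p = 0.000119). AT5G02120, annotated as a one helix protein, fell by 1.56 in cat2 gox2 (adjusted p = 3.37e-05), and PAM68, an assembly factor, fell by 1.61 in cat2 gox1 (adjusted p = 0.00296). Both were lower in the other line as well. AT5G02120 averaged 54.2 CPM in cat2 gox1 after high light against 149 CPM at high CO2. PAM68 averaged 8.61 CPM in cat2 gox2 after high light against 22.7 CPM at high CO2.

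**Figure D5:**
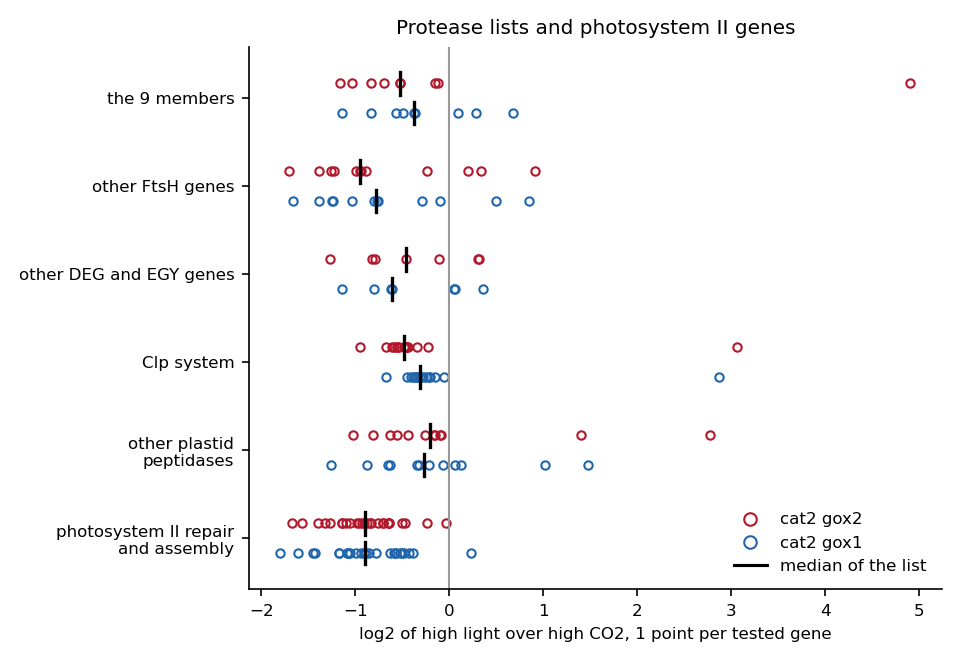
Log2 of high light over high CO2 (x axis) for each tested gene of 6 lists (y axis), cat2 gox2 in red above cat2 gox1 in blue, with black bars at list medians. The medians lie between -0.95 and -0.21 in all 6 lists, and the points to the right of 2.5 are EGY3 in cat2 gox2, CLPD in both lines and PLSP2A in cat2 gox2.

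Of 8 plastid stress genes and regulators, 3 rose and 1 fell in cat2 gox2, and 1 rose and 2 fell in cat2 gox1. The shares over all tested genes were 27.7% higher and 29.2% lower in cat2 gox2, and 25.6% and 26.5% in cat2 gox1. HSFA2, a heat stress transcription factor, had 279, 298 and 278 CPM in cat2 gox2 after high light against 1.16, 0.541 and 0.835 CPM in cat2 gox2 at high CO2, and 103, 197 and 131 CPM in cat2 gox1 after high light against 1.19, 0.416 and 0.913 CPM in cat2 gox1 at high CO2. It rose in both lines, by 8.40 on the log2 scale in cat2 gox2 (adjusted p = 4.7e-08) and by 7.42 in cat2 gox1 (adjusted p = 1.7e-07). HSP21, the plastid small heat shock protein linked to FTSH6, had 0.615, 7.71 and 3.33 CPM in cat2 gox2 after high light against 0, 0 and 0 CPM in cat2 gox2 at high CO2 (edgeR adjusted p = 0.000868). In cat2 gox1, HSP21 had 1, 1 and 2 counts after high light against 0, 0 and 3 at high CO2. HSP21 passed the filter on low counts only through the cat2 gox2 high light libraries, where it was high. Its call, and its place among the 3 that rose, are therefore a description of that group and no independent support. HSP21 and EGY3 were both lowest in replicate 1 and highest in replicate 2 among the cat2 gox2 high light libraries. DEG2 and EGY1, which fell, had the same order there, while FTSH1, FTSH8 and DEG1 were lowest in replicate 2. Replicate 2 is the library that stands apart in GOX2, so this order is not particular to HSP21 and EGY3. HSA32, a heat stress-associated protein, was the third gene that rose in cat2 gox2 (2.93, adjusted p = 0.000279). CLPB3, a plastid unfoldase, fell by 0.77 in cat2 gox2 (adjusted p = 0.00218) and fell by 1.16 in cat2 gox1 (adjusted p = 0.000182), and CSD2, the plastid copper and zinc superoxide dismutase, fell by 0.46 in cat2 gox1 (adjusted p = 0.0446), a call lost in 12 of 19 refits (adjusted p up to 0.146).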

How the data were processed

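The authors deposited 1 table of raw counts of reads per gene for 33604 entries, of which 2 name no gene and stayed out, and 12 libraries. Per the submitters' processing notes, Trim Galore 0.3.3, TopHat2 2.1.0, featureCounts of Subread 1.4.6 and the TAIR10 genome were used; those sources give no counting options. Counts were fitted with edgeR 4.0.16 (R 4.3.3): TMM scaling, genes kept by filterByExpr (count minimum 10, total minimum 15; 18967 genes, 99.96% of counts), 1 mean per group over the 12 libraries, quasi-likelihood tests, two-sided, with Benjamini-Hochberg adjustment over all tested genes and a threshold of 0.05. The fit was also run on simulated counts, with far fewer changed genes than passed here and larger changes than most members show. That run does not check the error rate in these data. SE is the log2 difference over the square root of F, and approximate 95% intervals are 1.96 SE wide on each side.

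The 10 members and the other gene lists were chosen with earlier results of these data known, so calls describe differences against replicate spread and are no evidence for the choice. Named genes from the other lists were by rule, for each line and list, the top 2 risers and top 2 fallers past the threshold; others in counts of 5 or fewer (DEG14, CLPP6, CLPR4, PLSP1, AT4G17740, SPP, HSA32, and CLPC1 in cat2 gox1) were named after their values were seen and were not refitted. Gene positions and sequences are from RefSeq (TAIR10.1); list symbols that its table does not pair with a locus are given as locus codes. Alternatives were RLE scaling, no or a stricter filter (CPM above 5 in at least 3 libraries), DESeq2 1.42.0, only the libraries compared, replicate number as a block, without replicate 3, and each library left out. The labels describe the whole set-up as repeated, so a number marks a shared repeat; deviations from group means of same-numbered libraries correlated between -0.21 and 0.76 over 18 pairs.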

Additional observations from a re-analysis of the deposited data

Results flagged for a closer look

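The response of EGY3 to high light differed between the lines by a test of that difference, at 4.24 on the log2 scale, cat2 gox2 minus cat2 gox1 (SE 0.42, edgeR adjusted p = 0.000958, higher in 3 of 3 cat2 gox2 high light libraries). The response of PLSP2A, the plastid signal peptidase gene, differed by 1.30 (SE 0.18, edgeR adjusted p = 0.00713), and it was likewise higher in each cat2 gox2 high light library than in any cat2 gox1 high light library. Without the 4 replicate 3 libraries both missed the threshold, EGY3 at 4.09 (adjusted p = 0.051) and PLSP2A at 1.29 (adjusted p = 0.067). Without the library that stands apart in GOX2 both passed, EGY3 at 3.93 (adjusted p = 0.0018) and PLSP2A at 1.25 (adjusted p = 0.0249).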

How the results depend on the processing

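Of 846 refits of the 45 member results, 787 kept direction and side of the threshold, and the cause of the other changes was not tested. Members passing in cat2 gox1 after high light numbered 3 to 7 with 1 library left out, and 6 to 7 in cat2 gox2. Genes passing with 1 library left out numbered 8203 to 10739 in cat2 gox1 and 9282 to 11467 in cat2 gox2, 721 to 1624 between the lines after high light, 2 to 4 at high CO2, and 88 to 195 for the difference of responses. The stricter filter, DESeq2 and leaving out replicate 3 gave 1, 5 and 1 genes in place of 3 between the lines at high CO2. For the difference of responses, DESeq2 gave 538 and leaving out replicate 3 gave 38 genes and 0 members, in place of 197 and 1. With the replicate block, 2 members in place of 1 passed between the lines after high light (EGY3 and FTSH8), and no other member call changed.

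Signs turned in results that had not passed. With 1 library left out, FTSH8 in cat2 gox2 ran from -0.22 to 0.036. Between the lines at high CO2, FTSH1 ran from -0.063 to 0.14, FTSH8 from -0.19 to 0.15, DEG1 from -0.035 to 0.21, DEG2 from -0.19 to 0.30, DEG5 from -0.040 to 0.19 and PLSP2A from -0.050 to 0.10. After high light, FTSH5 ran from -0.10 to 0.020, DEG2 from -0.21 to 0.21 and DEG5 from -0.23 to 0.024, and the DEG2 difference of responses ran from -0.28 to 0.26. Without replicate 3, FTSH8 in cat2 gox2 was 0.027, DEG2 after high light was -0.13 and type A over type B between the lines at high CO2 was -0.018, and the DEG2 difference of responses with the replicate block was 0.054.

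Leaving out each library of a ratio was added after seeing the data. It moved type A over type B from -0.44 to -0.31 in cat2 gox2 and from -0.55 to -0.47 in cat2 gox1, DEG5 over DEG8 from -0.38 to -0.27 and from -0.41 to -0.24, FTSH1 over FTSH5 from -0.072 to 0.11 and from -0.057 to 0.13, and FTSH8 over FTSH2 from -0.059 to 0.18 and from 0.07 to 0.36. FTSH6, at 0 to 4 counts per library, is limited by depth. RLE scaling moved the median of all genes by less than 0.1 (log2) in all 5 comparisons.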
